A study of Mus musculus with 162 samples.

Results

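The sirtuins and the enzymes that recycle their cofactor were followed as 10 genes, taken by symbol under a rule that uses no measured value, although earlier results of these data were known, among the 53686 rows of a count table from 9 mouse organs. The members were Sirt1 to Sirt7, Nampt, Nmnat1 and Nnmt, and each symbol was found in 1 row. In the Gencode models (GRCm38), Nnmt lies at chr9:48591877-48605153, Nmnat1 at chr4:149467572-149485202, Sirt3 at chr7:140863666-140882309 and Sirt7 at chr11:120618372-120625240, all on the minus strand, and Nampt at chr12:32819545-32853349 on the plus strand.

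Male C57BL/6J mice of 8 to 9 weeks were fasted for 0, 2, 8, 12, 18 or 22 h, with 3 mice at each time and 18 mice in all, and the 0 h mice were the fed controls. From every mouse the olfactory bulb (OB), the remaining brain (BRN), the cerebellum (CBL), the brainstem (BST), the stomach (STM), the liver (LIV), the interscapular brown fat (iBAT), the perigonadal white fat (pgWAT) and the posterior subcutaneous white fat (psWAT) were sequenced as poly(A) RNA. The animals carried no transgene or deletion and received no agent other than food withdrawal, and all were killed at one time of day. The study left out 5 libraries, so that an organ has 2 or 3 mice per time, and the kept libraries held 3045845 to 27801717 counts.

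Sirtuins remove acetyl and other acyl groups from proteins and consume nicotinamide adenine dinucleotide (NAD) in each reaction, releasing nicotinamide. Nampt turns nicotinamide into nicotinamide mononucleotide, the rate-limiting step of salvage, and Nmnat1 makes NAD from that product in the nucleus. Nnmt methylates nicotinamide with S-adenosylmethionine and so takes it out of the cycle. Sirt1, Sirt6 and Sirt7 are mainly nuclear, Sirt2 is mainly cytosolic, and Sirt3, Sirt4 and Sirt5 sit in mitochondria. Sirtuins are widely studied in fasting liver and fat because NAD links them to energy state.

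The RefSeq table of windows before gene starts (GRCm38.p6) held 9 of the 10 members. The windows of Sirt1 and Nampt are shown because these genes carry the deacetylase and the salvage enzyme most often linked to the circadian clock, whose factors bind E-boxes. Capitals mark the E-box CACGTG and the GC box GGGCGG or its reverse complement CCGCCC, on either strand. The Sirt1 window lies at chr10:63339036-63339285 on the minus strand and the Nampt window at chr12:32820085-32820334 on the plus strand, and both end at the base before the start that RefSeq gives.
Sirt1: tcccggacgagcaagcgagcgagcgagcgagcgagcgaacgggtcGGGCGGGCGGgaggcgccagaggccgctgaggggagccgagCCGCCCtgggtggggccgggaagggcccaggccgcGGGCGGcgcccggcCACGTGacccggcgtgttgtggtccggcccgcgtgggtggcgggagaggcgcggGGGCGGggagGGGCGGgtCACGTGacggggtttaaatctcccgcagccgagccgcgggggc
Nampt: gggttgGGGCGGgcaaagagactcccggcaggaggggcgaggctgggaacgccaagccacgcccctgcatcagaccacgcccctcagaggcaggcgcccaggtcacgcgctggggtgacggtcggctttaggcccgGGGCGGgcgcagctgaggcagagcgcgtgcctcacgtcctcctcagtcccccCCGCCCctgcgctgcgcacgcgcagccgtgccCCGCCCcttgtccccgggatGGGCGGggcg
CACGTG stood at 2 places in the Sirt1 window, 72 bases apart, with the nearer one beginning 43 bases before the start, and in no window of the other 8 genes, while 6.02% of all 32851 windows of that length held it. GGGCGG stood in at least 1 window of 8 of the 9 genes, against 32.7% of all windows. The FoxO letters TGTTTAC (3.17% of windows) and the cAMP response element TGACGTCA (1.55%) were in none of the members' windows. Some genes have 2 windows for 2 starts. These are matches of letters only.

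The organs were first checked against marker genes. The sum of 5 hepatocyte genes was 121390 to 151716 CPM (counts divided by the scaled library size) in the liver, the sum of 5 gastric epithelium genes 9190 to 84912 in the stomach, and the sum of 5 brown adipocyte genes 6430 to 19991 in iBAT. The brain regions were each highest in their own list, with olfactory bulb genes at 953 to 1182 in OB, cerebellar genes at 2948 to 3715 in CBL, brainstem genes at 290.1 to 586.1 in BST and telencephalon genes at 144.5 to 211.6 in BRN. Skeletal muscle genes reached 13478 in iBAT and 22390 in psWAT. The psWAT libraries held 4 lymphocyte genes (Cd79a, Cd3e, Cd3g, Ms4a1) at 52.6 to 1078 CPM, against at most 12.8 in any library of another organ, and adipocyte genes (Adipoq, Plin1, Fabp4, Cidec, Lep) at 320 to 22710. One psWAT library, 12 h replicate 3, held cerebellar genes at 1981 CPM (median over psWAT 0.599), and pgWAT 22 h replicate 2 held epididymis genes at 17608 CPM (median over pgWAT 8.49). Scaled within pgWAT, the epididymis genes were at 19521 CPM there, 7897 in 18 h replicate 3, 2623 in 2 h replicate 2 and 590 in 22 h replicate 3. The other pgWAT libraries held at most 30.5. In bulk tissue, fewer cells of a type and less RNA per cell cannot be told apart.

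The levels of the members were compared between organs. Nampt was highest in iBAT, at 968 ± 244 CPM (SD, n = 17), and lowest in BRN, at 43.8 ± 9.11 (n = 16), a ratio of 22.1. Nnmt reached 363.5 ± 132.4 in pgWAT (n = 18) and 337.1 ± 120.8 in the liver (n = 18) and was close to 0 in the nervous system. Sirt3 and Sirt7 were highest in the liver, Sirt2 in the brainstem, and Sirt6 had the narrowest range of organ means. These levels are CPM scaled by TMM factors over all kept libraries and pooled over the fasting times.

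**Figure D1:**
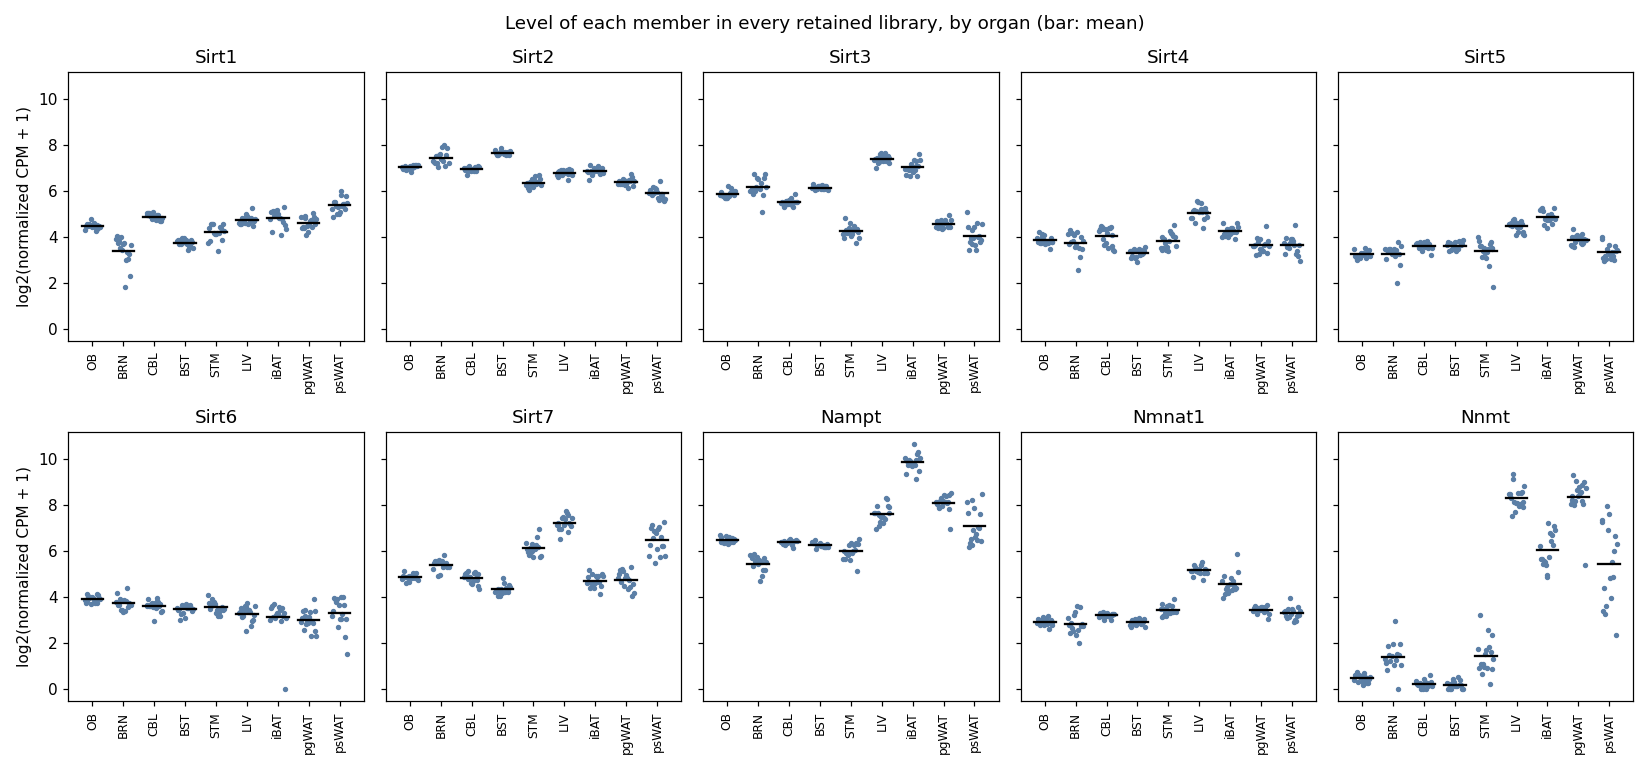
Level of each of the 10 members in every retained library, as log2 of normalized CPM (scaled across organs) plus 1, by organ; points are libraries and bars are means over 16 to 18 libraries. Nampt stands out in iBAT, Nnmt is near the bottom of the scale in the 4 nervous tissues and the stomach, and psWAT and BRN show the widest scatter for several members.

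The order of organs was tested in edgeR with a model of organ and time. Over the 10 members and 36 pairs of organs, 292 of 360 tests (81.1%) passed at an adjusted p below 0.05, and in the same pairs between 51.1% and 84.9% of all 21601 genes passed (median 79.65%), so that the members were near the other genes. Of the 80 steps between neighbours in the members' own orders, which are the smallest gaps by construction, 37 passed.

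Among the salvage enzymes, the Nampt order was iBAT, pgWAT, LIV, psWAT, OB, CBL, BST, STM and BRN. The first 4 steps of that order passed, and the step from iBAT to pgWAT was the largest of the 8 (log2 difference 1.80, SE 0.127, adjusted p = 6.06e-28, where 68.2% of all genes passed). OB, CBL, BST and STM lay between 64.1 and 88.6 CPM and their neighbouring steps did not pass. Nmnat1 was highest in LIV (35.22 ± 4.802, n = 18), then iBAT (23.8 ± 9.77, n = 17), and stood between 6.43 and 9.94 CPM in the other 7 organs.

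Nnmt had the widest span of organ means, with nearly no counts at its low end. PgWAT and LIV did not differ by the test (log2 difference 0.08, SE 0.266, adjusted p = 0.804, 77.7% of genes passing), and neither did iBAT (73.0 ± 38.1) and psWAT (75.8 ± 75.2; adjusted p = 0.867, 75.9% of genes). The step from psWAT to STM (2.15 ± 2.04 CPM) was 5.09 on the log2 scale (SE 0.347, adjusted p = 2.31e-29, 73.8% of genes). In BST the 18 libraries held 0 to 4 counts of Nnmt and 5 of them held none. In CBL they held 0 to 7 counts and in OB 2 to 11, so Nnmt failed the filter on low counts in those 3 tissues and no fasting effect was tested there.

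Of the mitochondrial sirtuins, Sirt3 was at 168.9 ± 19.3 CPM in LIV (n = 18) and 131.5 ± 25.7 in iBAT (n = 17; log2 difference 0.36, SE 0.088, adjusted p = 0.000116, 72.3% of genes). It fell through the nervous tissues (44.4 to 73.8) to 16.4 ± 6.00 in psWAT, 10.3 times under the liver. Sirt4 was highest in LIV, at 32.8 ± 7.00, with iBAT next at 18.1 ± 2.64, and the other organs stood at 8.84 to 16.0. Sirt5 was highest in iBAT, at 28.8 ± 5.47, then LIV, at 21.2 ± 3.32 (adjusted p = 4.37e-05), and stood at 8.43 to 13.8 elsewhere.

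Of the others, Sirt2, which is abundant in myelin-forming cells, was at 201 ± 11.5 CPM in BST, 176 ± 38.2 in BRN and 59.2 ± 10.0 in psWAT. Sirt1 ranged from 10.2 ± 3.72 in BRN to 41.1 ± 9.21 in psWAT, the depot with the lymphocyte genes, and CBL, iBAT, LIV, pgWAT and OB followed psWAT in that order with no passing step among them. Sirt7 was at 152.2 ± 32.1 in LIV, 93.3 ± 34.3 in psWAT, 70.9 ± 17.9 in STM and 19.3 ± 2.79 in BST. Sirt6 ranged from 7.30 ± 2.51 in pgWAT to 14.1 ± 1.45 in OB, and none of its 8 neighbouring steps passed, though 19 of its 36 pairs of organs did.

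Levels of different genes were compared per kilobase of exon. By mean CPM per kilobase, Sirt2 led all 10 members in OB (25.7), BRN (34.9), CBL (24.4), STM (16.2) and BST, where it was highest. Nnmt led in LIV (214), pgWAT (230.6) and psWAT (48.1), and Nampt led in iBAT (191.5). Sirt7 was the leading sirtuin in LIV (29.6, beside 28.3 for Sirt3) and in psWAT (18.1). No test was made between genes.

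Late fasting was taken as the mean of 18 and 22 h against the mean of 0 and 2 h, and the middle fast as the mean of 8 and 12 h against the same early samples. These contrasts share their early samples. Over 87 combinations of a member and an organ that passed the filter, 3 passed the late test, all higher in iBAT (Nnmt, Nmnat1, Sirt3), and 1 passed the middle test (Sirt7, higher in LIV). In iBAT 36% of all genes passed the late test and 16.6% were called higher, and in LIV 18% of genes passed the middle test and 9.04% were called higher. The share of members called, 3 of 10 in iBAT and 1 of 10 in LIV, was near those shares. In simulated data the late test found 4 of 100 genes changed by 0.5 on the log2 scale in iBAT and 33 of 100 in LIV, and 80 of the 87 late differences were under 0.5 in size. The simulation changed 100 genes by 0.5 and 100 by 1, far fewer than the 36% of genes that passed in iBAT. The adjustment depends on that share, so the simulated rates are not those of the real test. The median absolute log2 difference of the 87 was 0.16 late and 0.11 in the middle fast.

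**Figure D2:**
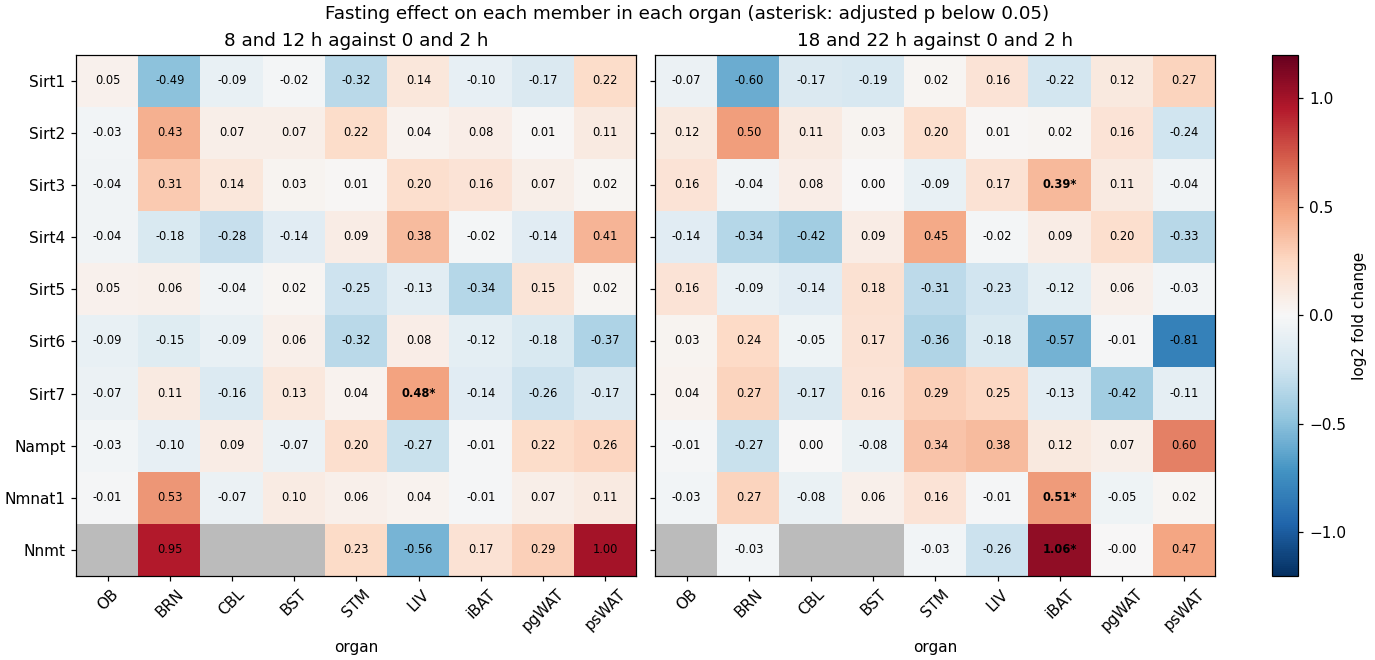
Log2 fold change of each member (rows) in each organ (columns) for 8 and 12 h (left) and for 18 and 22 h (right) against 0 and 2 h, from edgeR; an asterisk marks an adjusted p below 0.05 and grey marks a member under the filter on low counts. The marked cells are Sirt7 in LIV at left and Sirt3, Nmnat1 and Nnmt in iBAT at right.

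Nnmt in iBAT had the largest called change. Its normalized CPM, scaled within iBAT as are all values by time, were 52.2, 35.04 and 36.1 at 0 h, 30.6, 34.5 and 34.4 at 2 h, 30.1, 20.05 and 21.2 at 8 h, 103.2, 38.3 and 76.5 at 12 h, 57.8, 75.3 and 54.3 at 18 h, and 103.9 and 86.7 at 22 h. All 5 late libraries stood above all 6 early ones, and the 3 libraries at 12 h spread over most of the range. The late difference was 1.06 on the log2 scale (SE 0.21, edgeR adjusted p = 0.00194), and it alone of the 87 late differences was over 1 in size. In iBAT 12.7% of genes passed with a log2 difference over 1 in either direction. An exact two-sided permutation test gave p = 0.00433 (6 against 5), the smallest that 6 against 5 can give, which follows from the lack of overlap. The share of all iBAT genes without such overlap was not determined.

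Nmnat1 in iBAT was at 10.4 to 21.1 CPM in the 6 early libraries, at 13.8 to 14.7 in the 3 at 18 h, and at 43.6 and 23.7 in the 2 at 22 h. Only the 22 h libraries stood above the early range. The late difference was 0.51 (SE 0.196, edgeR adjusted p = 0.0491), and the adjusted p was 0.33 without 22 h replicate 2. An exact permutation test gave p = 0.286.

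Sirt3 in iBAT was at 73.8 to 90.3 CPM early, at 107.6, 71.7 and 95.8 at 18 h, and at 150.4 and 114.8 at 22 h. The groups overlapped. The late difference was 0.39 (SE 0.142, edgeR adjusted p = 0.0376), and an exact permutation test gave p = 0.0823. Exon bases of Sirt3 overlap Ric8a and Psmd13 on the opposite strand by 418 and 342 bases, and whether the counting used strand is not given in the sources used here. Ric8a and Psmd13, named after their values were seen, were also higher late in iBAT, by 0.43 (adjusted p = 0.0309) and 0.46 (adjusted p = 0.0243).

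Against 0 h alone, these 3 genes passed in iBAT at 22 h, and no member passed there at 2, 8, 12 or 18 h (0.248%, 0.392%, 0.248% and 0.275% of all genes). The log2 differences were 1.21 for Nnmt (SE 0.309, edgeR adjusted p = 0.0056), 1.02 for Nmnat1 (SE 0.29, adjusted p = 0.0102) and 0.67 for Sirt3 (SE 0.21, adjusted p = 0.0176), where 41% of iBAT genes passed. Each of the 2 retained libraries at 22 h was alone in its sequencing lane among the retained iBAT libraries, so that lane and time cannot be told apart there. These 2 libraries also had the fewest genes detected, 13933 in replicate 2 and 16967 in replicate 3, against 17561 to 21399 in the other retained iBAT libraries, and the part of this in the result was not tested. In 22 h replicate 2, the shallowest retained iBAT library with 3156101 counts, Sirt6 had 0 counts, which allows up to 0.956 CPM by counting error alone, against 4.75 to 8.89 in the other retained iBAT libraries.

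The adipocyte genes moved with these members. Their sum in iBAT was 9711 to 13461 CPM early, 12155 to 13673 at 18 h, and 23195 and 20441 at 22 h, and 3 of the 5 passed the late test as higher. Brown adipocyte genes gave 2 of 5 and macrophage genes 1 of 5 higher, and erythroid genes 2 of 5. Of all iBAT genes, 16.6% were called higher late. Per 1000 CPM of adipocyte genes, Nnmt was at 2.92 to 3.88 early and 4.09 to 5.50 late, and the groups did not overlap (log2 difference 0.46, exact permutation p = 0.00433 with 6 against 5, again the smallest possible). Divided in the same way, Nmnat1 was at 1.07 to 1.72 early and 1.01 to 1.88 late, and Sirt3 at 6.49 to 9.04 early and 5.24 to 8.85 late, and these groups overlapped. This division was chosen after the data were seen, and since 3 of the 5 adipocyte genes themselves passed the late test, cell content and regulation cannot be told apart by it.

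**Figure D3:**
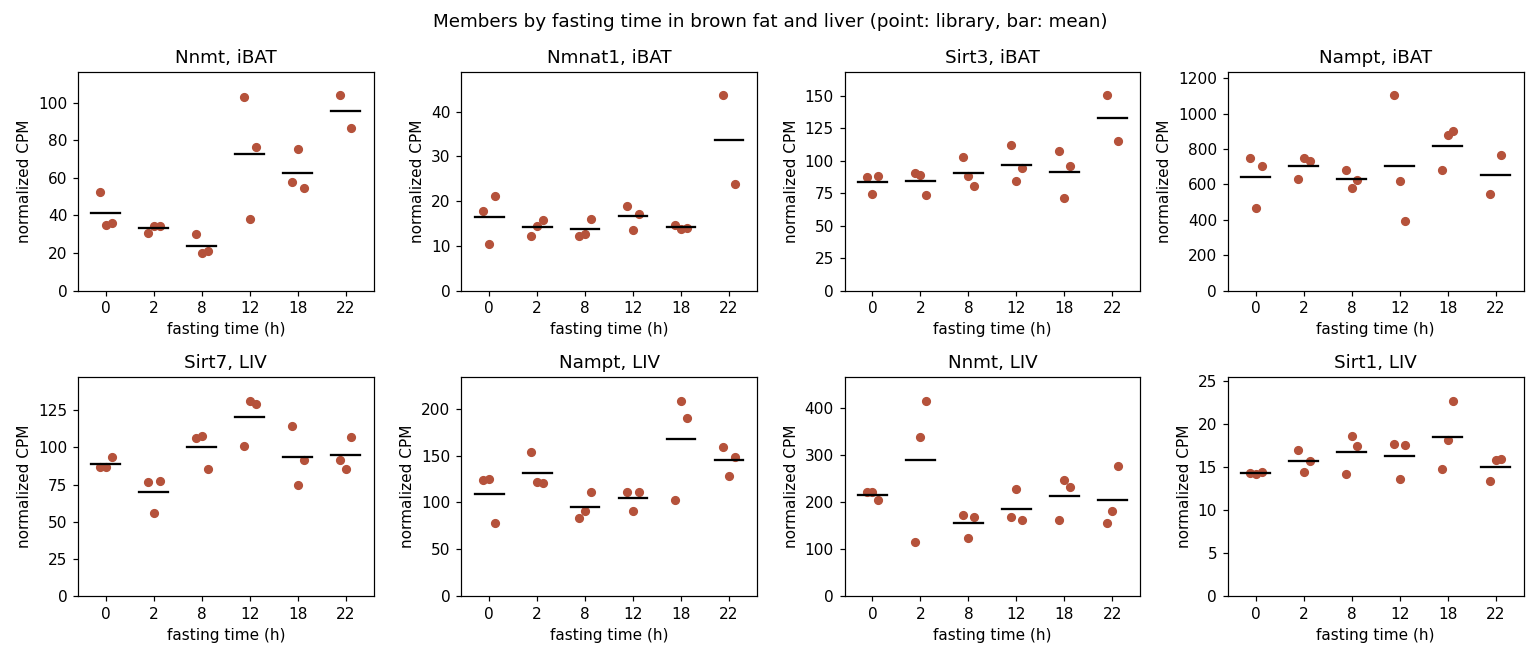
Normalized CPM (scaled within the organ) by fasting time in h for Nnmt, Nmnat1, Sirt3 and Nampt in iBAT and for Sirt7, Nampt, Nnmt and Sirt1 in LIV; points are libraries and bars are means of 2 or 3. Nnmt in iBAT is at 54.3 to 103.9 CPM from 18 h on against 30.6 to 52.2 at 0 and 2 h, and Sirt7 in LIV is highest at 12 h.

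In the liver, Sirt7 was at 87.1, 87.0 and 93.4 CPM at 0 h, 76.99, 55.8 and 77.1 at 2 h, 106.6, 107.6 and 85.8 at 8 h, 101.3, 131.6 and 129.4 at 12 h, 114.6, 74.9 and 91.3 at 18 h, and 91.5, 85.5 and 106.8 at 22 h. Of the 6 libraries at 8 and 12 h, 5 stood above all early ones. The middle difference was 0.48 (SE 0.112, edgeR adjusted p = 0.0073), with an exact permutation p of 0.00866 (6 against 6), and the late difference was 0.25 (SE 0.112, adjusted p = 0.13). Against 0 h alone Sirt7 passed at no time, with 0.17 at 8 h (adjusted p = 0.63), 0.44 at 12 h (adjusted p = 0.0744) and -0.35 at 2 h (adjusted p = 0.445), so that the early mean holds both the 0 h and the lower 2 h libraries. Sirt7 also passed the joint test over the 6 times (adjusted p = 0.0291, where 16% of liver genes passed), but not without 2 h replicate 2, 12 h replicate 2 or 12 h replicate 3 (adjusted p up to 0.097). Its first bases overlap exon bases of Mafg on the same strand, and Mafg, a transcription factor gene named after its values were seen, was higher in the same contrast by 0.41 (SE 0.095, adjusted p = 0.00697). All 0 and 2 h liver libraries were in one lane with 2 of the 8 h libraries, and all later ones in another. With lane in the model, which the split of the 8 h libraries allows, the middle difference was 0.69 (adjusted p = 0.0318), and the joint test did not pass (adjusted p = 0.087).

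Nampt in the liver was at 78.5 to 154.1 CPM early, 83.1 to 111.7 at 8 and 12 h, 102.96, 209.1 and 190.7 at 18 h, and 159.1, 128.1 and 148.6 at 22 h. Late and early libraries overlapped, and the difference of 0.38 (SE 0.157, edgeR adjusted p = 0.117) did not pass, though it passed without 18 h replicate 1 (adjusted p = 0.0092). With lane in the model it was 0.02 (SE 0.367). In iBAT, where Nampt was most abundant, it was at 466 to 751 early and 545 to 899 late. Liver Nnmt was at 114.3 to 415.1 early, with the highest and the lowest both at 2 h, and at 154.1 to 276.7 late. Its middle difference was -0.56 (SE 0.258, edgeR adjusted p = 0.145), and that of liver Sirt4 was 0.38 (SE 0.139, adjusted p = 0.0629). Without the filter on low counts both genes passed the middle and the joint test in LIV. Liver Sirt1 stayed at 13.3 to 22.7 CPM in all 18 libraries.

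The joint test over the 6 times was passed by Nnmt and Nmnat1 in iBAT (adjusted p = 0.000911 and 0.016, where 29% of genes passed) and by Sirt7 in LIV. Nmnat1 lost it without 22 h replicate 2 (adjusted p = 0.38).

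No member passed the late, the middle or the joint test in OB, BRN, CBL, BST, STM, pgWAT or psWAT with edgeR as set out above. Without the filter on low counts, Sirt2 in BRN passed the late test and Sirt3 in OB and BRN the joint test, and with the replicate block Sirt3 in OB passed the joint test (adjusted p = 0.0455). Of the 67 comparisons in these 7 organs, 9 late, 1 middle and 5 joint ones were at an unadjusted p under 0.05, where 21%, 11.1% and 19.6% of all genes were, and DESeq2 called 0 late, 0 middle and 3 joint (Sirt3 in OB and BRN, Nnmt in psWAT). Over all 9 organs, 14 of the 87 late and 6 of the 87 middle comparisons were at an unadjusted p under 0.05, beside 24.5% and 12.8% of all genes. Genes over the whole table passed the late test at 4.87% in OB, 7.43% in BRN, 2.48% in CBL, 0.0775% in BST, 22.7% in STM, 15% in LIV, 0.00609% in pgWAT and 0% in psWAT. The middle test was passed by 0.185% of genes in OB, 2.94% in BRN, 0% in CBL, 0.0238% in BST, 0% in STM, 0.0619% in iBAT, 0% in pgWAT and 0% in psWAT. The joint test was passed by 15.4% in OB, 0.00597% in BRN, 2.99% in CBL, 0.107% in BST, 6.55% in STM and 0% in pgWAT and psWAT.

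Whether the late effect was equal over the 9 organs was tested with 8 degrees of freedom. Sirt1 (adjusted p = 0.028) and Sirt4 (adjusted p = 0.0288) differed, as did 33.1% of all genes. In BRN the late effect of Sirt1 was 0.70 lower on the log2 scale than the mean of the other 8 organs (a difference of -0.7, SE 0.187, adjusted p = 0.0123, 7.14% of genes). Sirt1 was at 11.1 to 17.3 CPM in the early BRN libraries and at 4.58 to 12.7 in the 5 late ones. Of these, 18 h replicate 2 had the fewest counts of BRN (3045845) and the lowest neuron genes (1767 CPM, median 3390), and without it the BRN difference was -0.79 (SE 0.218, adjusted p = 0.102) while the test over all organs still passed (adjusted p = 0.0364). In STM the late effect of Sirt4, which acts on mitochondrial glutamate use, was 0.55 above that mean (SE 0.186, adjusted p = 0.027, 16.7% of genes). Sirt4 was at 8.86 to 12.4 CPM early and 9.59 to 19.1 late in STM. All early STM libraries were in one lane and all late ones in another, and the part of lane in this difference was not tested. Neither passed within its own organ, with adjusted p = 0.242 for Sirt1 and 0.0832 for Sirt4. The late effect of Nmnat1 in iBAT was 0.50 above the other organs (SE 0.173, adjusted p = 0.0285, 18.2% of genes), while its test over all organs gave an adjusted p of 0.358. With the 5 left-out libraries added, neither this difference (0.43, adjusted p = 0.144) nor that of Sirt4 in STM (0.59, adjusted p = 0.0738) passed. For Nnmt the test over all organs gave 0.577.

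In the fat depots, several members moved with the summed adipocyte genes of the library (values scaled within the depot). Of 30 relations of 10 members in 3 depots, 11 passed at an adjusted p under 0.05 by both r and rho, of which 9 were positive and 2 negative. By depot these were 4 in iBAT, 1 in pgWAT and 6 in psWAT. Another 8 passed by 1 of the 2 measures, 1 in iBAT and 7 in pgWAT, and 11 by neither. How many of all genes moved with the same sum was not tested, so these counts cannot be read as particular to the members. Over the 17 psWAT libraries, Nnmt ran from 5.23 CPM at 22 h replicate 1, with adipocyte genes at 405, to 332 at 8 h replicate 1, with adipocyte genes at 30482. The correlation of log2 values was r = 0.99 and rho = 0.98 (permutation p = 1e-05 for each, the smallest that the permutations can give, adjusted p = 7.5e-05 and 0.0001 over the 30). Without the 2 libraries farthest from the median r was 0.98, and within the 2 lanes that held 6 or more libraries it was 0.99 and 0.98. Both measures are shares of one library and so not free of each other.

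Nampt followed in psWAT (r = 0.89, rho = 0.88, permutation p = 1e-05 and 2e-05, adjusted 7.5e-05 and 0.00015; 0.88 without 2), with 0.85 and 0.88 within lanes. Nampt in iBAT gave r = 0.13 and rho = 0.36 over all 17 libraries (permutation p = 0.6 and 0.16, adjusted 0.65 and 0.21; 0.39 without 2), but r = 0.85 within the one iBAT lane that held 6 or more libraries, which had 7. In pgWAT it gave r = 0.83 and rho = 0.48 (permutation p = 0.0023 and 0.045, adjusted 0.007 and 0.08; 0.34 without 2), with 0.48 and 0.94 within lanes. Sirt7 ran the other way in psWAT (r = -0.81, rho = -0.8, permutation p = 0.00014 and 0.0002, adjusted 0.0007 and 0.0012; -0.73 without 2), with -0.69 and -0.96 within lanes. Sirt7 gave r = 0.30 and rho = 0.23 in iBAT (permutation p = 0.24 and 0.37, adjusted 0.31 and 0.42; -0.03 without 2), with 0.19 within the lane of 7. In pgWAT it gave r = -0.27 and rho = -0.7 (permutation p = 0.3 and 0.0019, adjusted 0.34 and 0.0068; -0.74 without 2), with -0.5 and -0.23 within lanes. These differences between depots were not tested. Sirt7 was at 191.5 CPM in the psWAT library with the fewest adipocyte counts and at 59.1 in the one with the most, where the 4 lymphocyte genes summed to 1209.3 and 70.6 CPM. The part of lymphocytes in the level of Sirt7 was not tested.

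The other psWAT relations that passed were positive and belonged to mitochondrial sirtuins and the nuclear NAD synthase. Sirt5 gave r = 0.72 and rho = 0.74 (permutation p = 0.0014 and 0.001, adjusted 0.0053 and 0.0043; 0.80 without 2), with 0.5 and 0.78 within lanes. Sirt3 gave r = 0.69 and rho = 0.71 (permutation p = 0.0023 and 0.002, adjusted 0.007 and 0.0068; 0.71 without 2), with 0.57 and 0.77 within lanes. Nmnat1 gave r = 0.65 and rho = 0.63 (permutation p = 0.0041 and 0.0081, adjusted 0.011 and 0.02; 0.60 without 2), but within lanes r was 0.09 over 10 libraries and 0.88 over 6, so that the relation was not seen in the larger lane.

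In pgWAT Nnmt gave r = 0.97 (rho = 0.89, permutation p = 1e-05 for each, adjusted 7.5e-05 and 0.0001; 0.85 without 2), with 0.94 and 0.98 within lanes. Its lowest pgWAT value, 44.9 CPM, was in 22 h replicate 2, the library with the highest epididymis genes. In 18 h replicate 3, 2 h replicate 2 and 22 h replicate 3, which also held them, Nnmt was at 289.9, 275.7 and 468.1 CPM. The 7 pgWAT relations that passed by 1 measure were Nampt and Nmnat1 by r, both positive, and Sirt3, Sirt5 (positive), Sirt4, Sirt6 and Sirt7 (negative) by rho. Without 2, r was -0.0 for Nmnat1, 0.45 for Sirt3, 0.67 for Sirt5, -0.45 for Sirt4 and -0.58 for Sirt6. Within lanes it was 0.73 and 0.73, 0.09 and 0.53, 0.89 and -0.0, -0.53 and -0.26, and -0.38 and -0.45 in the same order. In iBAT Nnmt gave r = 0.87 (rho = 0.89, permutation p = 1e-05 for each, adjusted 7.5e-05 and 0.0001; 0.90 without 2) and 0.83 within the lane of 7 libraries. Nmnat1 in iBAT gave r = 0.84 and rho = 0.69 (permutation p = 8e-05 and 0.0031, adjusted 0.00048 and 0.0092; 0.56 without 2), and Sirt3 gave r = 0.75 and rho = 0.57 (permutation p = 0.00078 and 0.018, adjusted 0.0033 and 0.034; 0.40 without 2), with 0.58 and 0.72 within that lane. The relation of Sirt3 over all 17 libraries was weaker without the 2 farthest, which are those at 22 h, while the lane of 7 holds neither of them. Sirt1 in iBAT ran the other way (r = -0.56, rho = -0.67, permutation p = 0.018 and 0.0039, adjusted 0.038 and 0.011; -0.55 without 2), as did Sirt6 by r (r = -0.68, rho = -0.48, permutation p = 0.0047 and 0.053, adjusted 0.012 and 0.088; -0.29 without 2). Within the lane of 7 these were -0.13 and -0.03, so neither relation was seen there. The part of cell content in the fasting results was not tested.

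**Figure D4:**
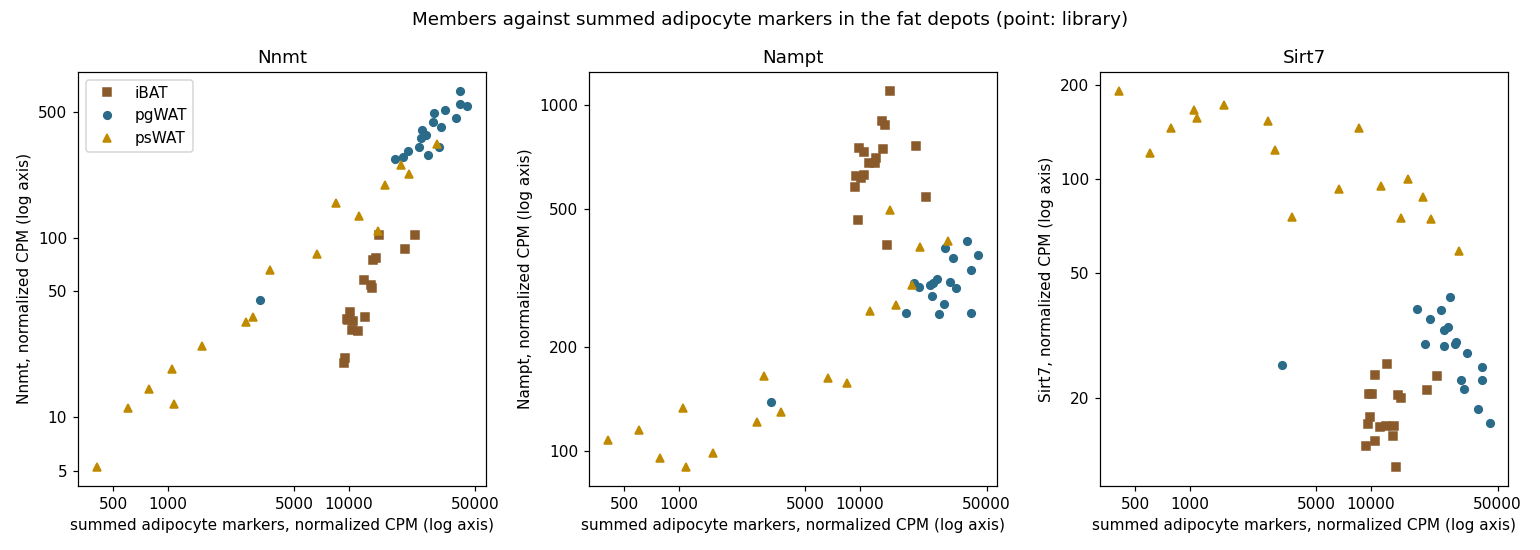
Normalized CPM of Nnmt, Nampt and Sirt7 (log axis, scaled within the depot) against the summed normalized CPM of 5 adipocyte genes (log axis); points are libraries of iBAT (squares), pgWAT (circles) and psWAT (triangles). Nnmt rises with the adipocyte genes in all 3 depots, and in psWAT Nampt rises and Sirt7 falls along the axis.

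The 52 other genes of 8 lists around NAD were all in the table. In iBAT 36 passed the filter, and 6 were higher and 8 lower late, beside 16.6% and 19.4% of all iBAT genes. Against 0 h alone, 0.275% of iBAT genes passed at 18 h and 41% at 22 h, where the libraries stood apart as given above. The part of those libraries in the list results was not tested. The nicotinate enzyme Naprt rose by 0.80 (SE 0.146, edgeR adjusted p = 0.00142), from 24.8 ± 2.88 to 43.2 ± 22.3 CPM, and the sirtuin substrate Acss2, acetyl-CoA synthetase, fell by 1.39 (adjusted p = 0.000487), from 399.8 ± 164.6 to 150.98 ± 40.5. Of 5 NAD consumers tested, Tnks and Tnks2 were lower, Tnks by 1.28 (a difference of -1.28, adjusted p = 0.00107), and the list's median was -0.55 beside -0.08 for all genes. Of 5 clock factors, Arntl, Clock and Per2 were lower and Dbp higher, and the median was -0.69; Arntl fell from 4.26 ± 2.39 to 1.42 ± 0.93 CPM (adjusted p = 0.0054). Hic1, which represses Sirt1, went from 9.62 ± 1.27 to 4.41 ± 3.23 (adjusted p = 0.00312).

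In the liver 46 of the 52 were tested, 1 higher and 7 lower late, beside 7.76% and 7.2% of all genes. Of 8 genes of NAD synthesis from tryptophan, Kmo, Kynu, Acmsd and Qprt were lower and none higher, with a median of -0.23 beside 0.01 for all genes. Kynu went from 134.4 ± 16.4 to 93.7 ± 9.04 CPM (log2 difference -0.52, adjusted p = 0.00115), Kmo from 358 ± 73.7 to 272 ± 30.3 (adjusted p = 0.0124) and Acmsd, which diverts the pathway away from NAD, from 28.9 ± 10.4 to 14.7 ± 4.45 (adjusted p = 0.0219). Pnp, which frees nicotinamide from its riboside, went from 37.6 ± 10.5 to 23.4 ± 5.22 (adjusted p = 0.00278), and Acss2 from 122.1 ± 24.4 to 68.4 ± 13.5 (adjusted p = 0.000247). In the middle fast 3 were higher and 8 lower (9.04% and 8.94% of all genes), among them Nmrk1, the riboside kinase, from 82.2 ± 10.7 to 115.7 ± 17.5 (adjusted p = 0.00575), and the urea cycle gene Cps1, from 1754.5 ± 285.3 to 1188.3 ± 162.5 (adjusted p = 0.00779). Each of these means is over 6 libraries.

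In the stomach 43 were tested, 2 higher and 9 lower late (10.7% and 12% of all genes), in a tissue whose lanes split as in the liver. Of the 14 sirtuin partners and substrates tested, 6 were lower and 1 was higher. The lower ones included Acss1, from 126.7 ± 13.7 to 73.7 ± 22.5 CPM (edgeR adjusted p = 0.00759), and Idh2, from 191.2 ± 38.1 to 128.5 ± 22.9 (adjusted p = 0.0147). In BRN Tnks and Nr1d1 were lower, in OB Dbp was higher, from 106.2 ± 12.1 to 146.2 ± 23.2 (adjusted p = 0.0107), and in CBL, BST, pgWAT and psWAT none of the 52 passed.

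The genes whose time pattern was most like a member's were sought over 54 means of organ and time, after each organ's mean was taken away, among 11679 genes. Nnmt was most like Gstz1 (r = 0.92), Cmbl and Slc48a1 (0.87 each). Sirt6 was most like Sympk and Rcor1 (0.85 each) and Gak (0.84), Sirt3 like Lsm10 (0.83), Eef2kmt (0.82) and Coa6 (0.81), and Nmnat1 like Cdc34 (0.80), Itgb1bp1 and Atp5l-ps1 (0.76 each). Sirt1 was most like Lrch3 (0.78), Zbtb44 and Mbd5 (0.76 each), Nampt like Slc25a51 (0.74), a carrier of NAD into mitochondria, Ifrd1 and Gpat3 (0.73 each), and Sirt7 like Dcaf15 (0.71), Rpl11 (0.69) and Arhgap45 (0.68). Sirt4 was most like Ankzf1, Dvl1 and Tatdn3 (0.70 each), Sirt2 like Smarcd3 (0.65), Exoc7 (0.63) and Mospd3 (0.59), and Sirt5 like Derl1 (0.64), Prelid3b (0.63) and Rpp14 (0.62). The 54 means share libraries and organ composition, so these are descriptions only. Among the members, Nampt and Nnmt went together most (r = 0.52), and Sirt6 ran against Nmnat1 (-0.66) and Sirt3 (-0.53).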

How the data were processed

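RNA of 9 organs from 18 mice was sequenced after stranded poly(A) library preparation, and white fat RNA came from another extraction kit than that of the other organs. The authors aligned reads with TopHat2 2.1.1 to GRCm38.p5 and counted them per gene with HTSeq 0.9.1, and they deposited raw counts, 1 column per library. Whether counting used strand is not given in the sources used here.

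The 10 members and all lists were chosen with earlier results of these data known. Genes were kept in an organ where at least 3 of the retained libraries reached the CPM that equals 10 counts in the median library. Main tests were edgeR 4.0.16 quasi-likelihood F tests (TMM factors, robust) in R 4.3.3, 1 fit per organ over 6 times, with Benjamini-Hochberg adjustment over all kept genes and a threshold of 0.05. Effects across organs and the order of organs used fits over 157 libraries and 21601 genes. DESeq2 1.42.0, RLE factors, no filter, all 162 libraries, lane and replicate terms, and leaving out each library were alternatives. Correlations and single values used permutation tests in scipy 1.17.1 on log2 of CPM plus 1. Gene models came from Gencode and windows before gene starts from RefSeq (GRCm38.p6). Text names all members, up to 5 listed genes per organ with the smallest adjusted p, and the 3 genes most like each member. In simulated data made from LIV, iBAT and psWAT libraries, the late test found 83 of 100 genes changed by 1 on the log2 scale in LIV (14023 genes tested), 43 in iBAT (14529) and 0 in psWAT (16721), and 33, 4 and 0 of 100 genes changed by 0.5. Far fewer genes were changed there than passed the real late test in LIV and iBAT. The simulated rates are therefore not those of the real tests in these 2 organs. No 2 replicate libraries were identical. Replicates of a time are different mice. Proteins were not analysed here, and 1 listed gene and 1 marker gene are not reported here.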

Additional observations from a re-analysis of the deposited data

Results flagged for a closer look

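The late effect of Sirt1 differed over the 9 organs (edgeR quasi-likelihood test, 8 degrees of freedom, adjusted p = 0.028), and so did that of Sirt4 (adjusted p = 0.0288). Each was singled out because its response to the fast differed between organs by a test of the difference itself. For Sirt1 the organ that departed from the mean of the other 8 was BRN (difference -0.7 on the log2 scale, SE 0.187, adjusted p = 0.0123; -0.79 and adjusted p = 0.102 without 18 h replicate 2, which had the fewest counts and the lowest neuron genes of BRN), and for Sirt4 it was STM (0.55, SE 0.186, adjusted p = 0.027). Of all genes, 33.1% differed over organs in the same test, and with the 5 left-out libraries added neither member passed (adjusted p = 0.058 and 0.091). In STM all early libraries were in one lane and all late ones in another, and the part of lane in the Sirt4 difference was not tested.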

How the results depend on the processing

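Of the 87 combinations of member and organ, 3 passed the joint test over times. That count was 8 without the filter on low counts and 8 with DESeq2, where Sirt3 in OB and BRN and Nampt in LIV were among the additions to both, and 4 with the replicate block, which added Sirt3 in OB. With lane in the model it was 0, as was the late count, but this could not be fitted in iBAT, where 2 joint calls and all 3 late calls lie, and CBL and BST had 1 lane each. The late count of 3 was 11 and the middle count of 1 was 8 by the exact permutation test at an unadjusted p under 0.05, where 19% and 13.2% of all genes passed. Without the filter the middle count was 3, with Nnmt and Sirt4 in LIV added. Leaving out 1 library at a time gave joint counts of 2 to 4, late counts of 1 to 4 and middle counts of 1 to 3. Replicate numbers did not pair the mice (mean correlation of same-numbered deviations 0.159 in iBAT, -0.078 to 0.032 elsewhere, with negative pairs in every organ), and the replicate block left 2 late calls, without Nmnat1, and 1 middle call. Nnmt in iBAT kept its late call in all 17 fits that left out 1 iBAT library (log2 difference 0.98 to 1.17), and Sirt7 in LIV its middle call in all 18 (0.41 to 0.53). Sirt3 in iBAT lost its late call without 0 h replicate 2, 2 h replicate 2, 2 h replicate 3, 18 h replicate 1, 18 h replicate 3 or 22 h replicate 2 (0.29 to 0.49 over 17 fits). Nmnat1 in iBAT lost it in 12 of 17 (0.27 to 0.71) and kept it only without 0 h replicate 3, 22 h replicate 3 or any one of the 12 h libraries. Without the filter on low counts the late calls were Nnmt in iBAT, Sirt2 in BRN and Nampt in LIV, and Sirt3 (adjusted p = 0.12) and Nmnat1 (0.075) in iBAT lost theirs. Nmnat1 also lost it with the left-out libraries added (0.1). Divided by adipocyte genes, the late difference was -0.14 for Nmnat1 and -0.21 for Sirt3 in iBAT, the opposite direction, with exact permutation p = 0.455 and 0.186 (6 against 5). The 2 members whose late effect differed between organs were 3 with RLE factors, 0 with the 5 left-out libraries added, and the same 2 with animal as a replicate block or without BRN 18 h replicate 2, a setting chosen after seeing the data. Of 37 passing steps between neighbouring organs, 15 passed with only the 0 h libraries, which are 3 per organ. The cause of these changes was not tested. Nnmt had 11 counts or fewer in each OB, CBL and BST library, so no fasting effect was tested there.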
